A study of Homo sapiens with 20 samples.

Results

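The interleukin 1 system is described here through 6 genes of 58676 in the count table of immortalized human pericytes, chosen by name: the ligands IL1A, IL1B and IL33, the receptor chains IL1R1 and IL1RAP, and the kinase gene IRAK2. Of the 6 genes, 4 had enough counts to be tested (IL1B, IRAK2, IL1R1 and IL1RAP), while IL1A and IL33 were too low to judge. The cells were CL 05008-CLTH, an immortalized pericyte line labelled wild-type, and 20 RNA sequencing libraries fell into 4 groups of 5. Control cells received neither factor. The eNAMPT group received recombinant human extracellular NAMPT at 500 ng/mL, the PDGF-BB group recombinant human PDGF-BB at 20 ng/mL, and the combined group (eNAMPT+PDGF-BB) both, each for 4 hours, in cells kept in culture medium with serum. The study asked how extracellular NAMPT, the secreted form of an NAD salvage enzyme, acts on pericytes, the mural cells that wrap small vessels and depend on PDGF-BB. The labels call the 5 libraries biological replicates of 1 line, so p-values measure the spread between samples of that line.

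Interleukin 1 alpha and beta bind the receptor IL1R1, which then recruits the accessory chain IL1RAP. Interleukin 33 uses a receptor of its own, IL1RL1, with the same accessory chain. The assembled receptors call in the adaptor MYD88 and the IRAK kinases, among them IRAK2, and activate NF-kB and MAP kinases. Interleukin 1 beta is made as a precursor that caspase 1 cleaves, whereas the precursor of interleukin 1 alpha is already active. IL1B is best known from activated myeloid cells, and its transcription is itself induced by inflammatory signals.

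On GRCh38, with gene limits from GENCODE 29, both interleukin 1 ligand genes lie on the minus strand of chromosome 2. IL1A (ENSG00000115008) spans 112773915 to 112784590 and IL1B (ENSG00000125538) 112829751 to 112836903, with 45160 bases between them. IL1R1 (ENSG00000115594) lies on the same chromosome at 102064544 to 102179874, on the plus strand. IL1RAP (ENSG00000196083, 190514051 to 190659750) and IRAK2 (ENSG00000134070, 10164865 to 10243743) are on chromosome 3, and IL33 (ENSG00000137033, 6215786 to 6257983) is on chromosome 9. IL1RAP shares its interval with the pseudogene GCNT1P3 on the same strand, which had 42 counts in all libraries, and IL1R1 with the antisense gene IL1R1-AS1, which had 0. No gene of the annotation overlapped IL1A, IL1B, IL33 or IRAK2.

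The sequences just upstream of IL1B and IRAK2 are shown because these were the genes of the 6 that passed a test. Each is RefSeq sequence of GRCh38.p14, 5′ to 3′ on the gene's strand, and ends at the base before the gene's start in GENCODE 29. The first is chr2:112836904-112837029 on the minus strand and the second chr3:10164669-10164864 on the plus strand. Lower case is used throughout, since no searched motif fell in them.
IL1B: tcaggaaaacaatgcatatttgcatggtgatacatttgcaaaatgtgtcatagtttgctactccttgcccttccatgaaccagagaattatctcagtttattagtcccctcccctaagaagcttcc
IRAK2: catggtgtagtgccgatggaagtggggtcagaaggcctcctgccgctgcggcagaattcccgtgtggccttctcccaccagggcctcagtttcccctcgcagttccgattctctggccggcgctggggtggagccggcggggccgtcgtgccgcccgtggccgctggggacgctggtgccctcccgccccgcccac
The IL1B stretch of 126 bases was 40.5% G and C, and the IRAK2 stretch of 196 bases 71.4%, against a median of 58.0% over all 35116 RefSeq promoter windows of 250 upstream bases. Both strands of the 11 windows of the 6 genes were searched for 5 motifs. The kappaB consensus was in 0 of the 11 windows and in 9.96% of all windows. The AP-1 motif TGANTCA was in both windows of IL1A and in none of the other 5 genes, against 6.57% of all windows. The CRE motif TGACGTCA (1.65% of all windows), the CArG consensus (1.16%) and the C/EBP motif TTGCGCAA (0.131%) were in 0 of the 11 windows. A missing match says only that these letters are not in these windows.

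IL1B rose when both factors were given. Its level, in TMM-scaled counts per 1000000 (CPM), was 6.12, 6.14, 7.22, 1.87 and 7.16 in control replicates 1 to 5. With eNAMPT it was 10.4, 13.0, 12.0, 7.01 and 8.16 CPM, and with PDGF-BB 11.8, 8.90, 7.29, 13.7 and 14.0 CPM. With both it was 31.4, 25.2, 19.2, 19.2 and 18.4 CPM. All 5 combined libraries lay above all other 15, a pattern that 0.0743% of the 12111 tested genes showed. The lowest eNAMPT library lay within the control range (0.396% of tested genes had all eNAMPT libraries above control), the PDGF-BB libraries all lay above the control libraries (1.52% of tested genes did so), and the eNAMPT and PDGF-BB ranges overlapped.

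From the lowest mean to the highest, IL1B stood at 5.70 CPM ± 2.21 (SD, n = 5) in control, 10.1 CPM ± 2.52 under eNAMPT, 11.1 CPM ± 2.94 under PDGF-BB and 22.7 CPM ± 5.60 under the combination. A control library held 17.8 IL1B counts on average and a combined library 74.4. In these bulk libraries, more cells carrying the transcript and more transcript per cell cannot be told apart.

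IRAK2, whose product relays the signal from interleukin 1 and Toll-like receptors, also rose with both factors. It stood at 3.37, 5.17, 2.95, 2.14 and 3.07 CPM in control replicates 1 to 5, where the libraries held 8 to 16 counts. With eNAMPT it was 6.80, 5.71, 12.5, 5.10 and 8.81 CPM, with PDGF-BB 6.79, 3.45, 11.1, 6.83 and 9.31 CPM, and with both 9.78, 6.50, 11.4, 11.4 and 11.5 CPM. The combined libraries all lay above the control libraries, which 1.75% of tested genes did, while 1.18% had all combined libraries below control. With eNAMPT or PDGF-BB alone, 4 of 5 libraries lay above the highest control library, and these groups overlapped each other and the combined group. The means were 3.34 CPM ± 1.12 (SD, n = 5) in control, 7.79 CPM ± 3.01 under eNAMPT, 7.49 CPM ± 2.89 under PDGF-BB and 10.1 CPM ± 2.14 under the combination.

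IL1R1, the signalling receptor of interleukin 1 alpha and beta, was counted in all 20 libraries at 61 to 145 counts. It stood at 34.6, 41.7, 29.5, 20.3 and 28.0 CPM in control replicates 1 to 5 and at 25.7, 23.1, 22.1, 19.4 and 22.2 CPM with eNAMPT. With PDGF-BB it was 26.6, 31.6, 29.4, 21.1 and 26.4 CPM, and with both 30.4, 39.3, 23.4, 28.0 and 26.6 CPM. All 5 eNAMPT libraries lay below the control mean of 30.8 CPM ± 7.94 (SD, n = 5), but 4 of them lay within the control range. The eNAMPT mean of 22.5 CPM ± 2.26 was the lowest, followed by PDGF-BB at 27.01 CPM ± 3.94, the combined group at 29.5 CPM ± 6.00 and control, and neighbours in this order overlapped.

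IL1RAP, the accessory chain that the interleukin 1 and interleukin 33 receptors share, was counted in all libraries at 17 to 67 counts. It stood at 11.0, 13.9, 11.8, 8.55 and 15.4 CPM in control replicates 1 to 5, and at 9.45, 13.5, 9.72, 15.8 and 9.93 CPM with PDGF-BB. With eNAMPT it was 19.8, 8.56, 9.54, 5.42 and 6.20 CPM, so that replicate 1 stood well above the other 4. With both it was 20.2, 10.3, 15.6, 14.5 and 20.7 CPM. The group means of IL1RAP were 9.91 CPM ± 5.79 (SD, n = 5) with eNAMPT, 11.7 CPM ± 2.85 with PDGF-BB, 12.1 CPM ± 2.63 in control and 16.3 CPM ± 4.32 with both, and all 4 groups overlapped.

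IL1A and IL33 could not be judged. IL1A had 6 counts in the 20 libraries together: 1 in control replicate 3, 2 in PDGF-BB replicate 2, and 1 each in replicates 1, 2 and 3 of the combined group. IL33, an alarmin stored in the nucleus, had 2 counts, both in combined replicate 2. A total of 0 in a group allows a level of up to 0.187 CPM for IL33 in control, 0.183 CPM for both genes with eNAMPT and 0.176 CPM for IL33 with PDGF-BB, where 3 counts in the group's pooled libraries are the limit. These limits cover counting error only. In a fit with no filter on low counts, the smallest adjusted p of either gene over the 6 comparisons was 0.57 (edgeR quasi-likelihood).

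**Figure D1:**
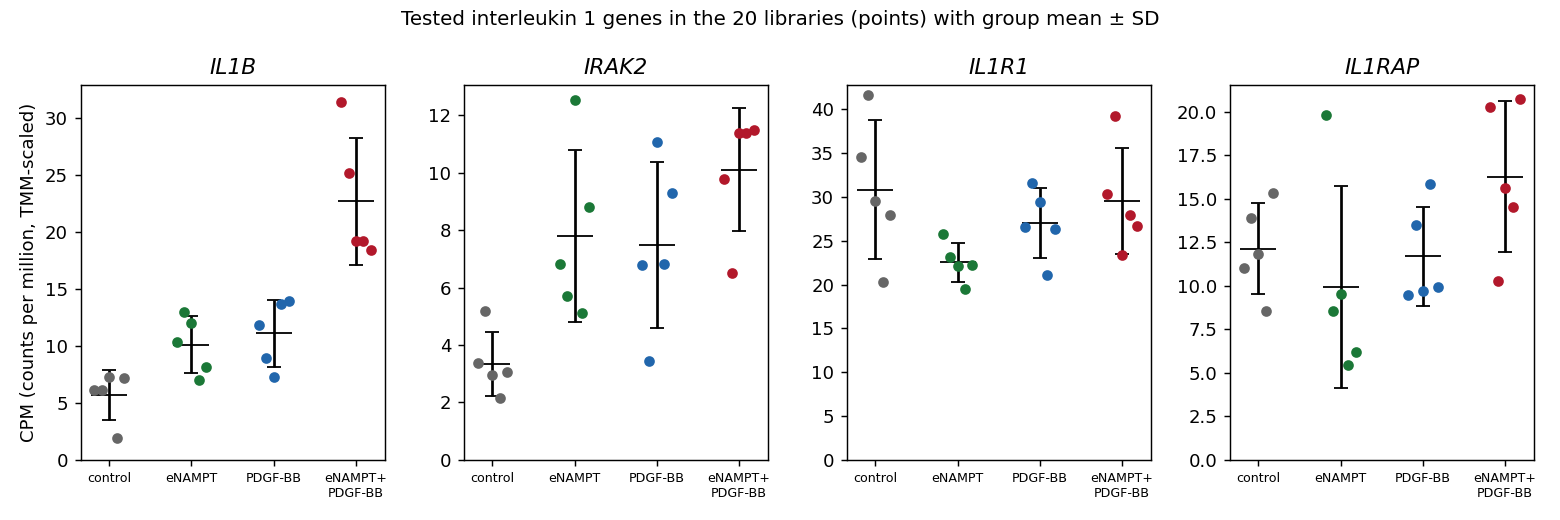
Level of the 4 tested genes in each of the 20 libraries, in TMM-scaled CPM on an axis from 0, with points for libraries in replicate order and bars for the group mean ± SD of 5. The combined IL1B libraries, at 18.4 to 31.4 CPM, sit above all others, while the IL1R1 and IL1RAP groups overlap.

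The combined treatment was first compared with control. IL1B had a log2 fold change of 2.00 (SE 0.26, 95% interval 1.48 to 2.53, adjusted p 7.31e-07, edgeR quasi-likelihood over all 12111 genes), a 4.01-fold rise. IRAK2 had 1.59 (SE 0.33, interval 0.93 to 2.26, adjusted p 0.00234), a 3.02-fold rise. For both genes 5 of 5 combined libraries lay above the highest control library, which 1.75% of tested genes did. IL1R1 had -0.05 (interval -0.38 to 0.27) and IL1RAP 0.42 (interval -0.10 to 0.94), and neither passed. Thus 2 of the 4 tested genes rose and 0 fell, against 1.98% of all tested genes called in either direction, 1.63% higher and 0.347% lower.

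eNAMPT alone was compared with control to see what the protein did without added growth factor. None of the 4 genes passed (edgeR quasi-likelihood), and DESeq2 and limma-voom also passed 0, while 0.0743% of all tested genes passed. IRAK2 had a log2 fold change of 1.23 (SE 0.34, interval 0.55 to 1.91, p 0.000682, adjusted p 0.413) and IL1B 0.85 (SE 0.28, interval 0.29 to 1.41, p 0.00396, adjusted p 0.959). Each of the 5 eNAMPT libraries exceeded the mean of control in IRAK2 and in IL1B. IL1R1 had -0.45 (SE 0.17, interval -0.78 to -0.11, p 0.0103, adjusted p 1), and it was the third gene with an unadjusted p under 0.05, a level that 3.61% of all tested genes reached. IL1RAP had -0.27 (SE 0.27, interval -0.82 to 0.27, adjusted p 1), and -0.69 (p 0.0125, adjusted p 1) without eNAMPT replicate 1, the outlying library. Without 1 other library it came as near to 0 as -0.12, when eNAMPT replicate 4 was left out. Without control replicate 4, the library with the least IL1B, the IL1B value was 0.60.

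PDGF-BB alone gave values of like size for the same genes. IL1B had a log2 fold change of 0.98 (SE 0.28, interval 0.42 to 1.53, adjusted p 0.0687) and IRAK2 1.17 (SE 0.34, interval 0.49 to 1.85, adjusted p 0.0771), each higher than the mean of control in 5 of 5 PDGF-BB libraries. By edgeR's quasi-likelihood test 0 of the 4 genes passed, against 1.21% of all tested genes, and 2 had an unadjusted p under 0.05, against 9.64%. These calls lay near the threshold: DESeq2 passed both genes (adjusted p 0.0314 for IL1B and 0.0403 for IRAK2) and limma-voom neither. With the replicate number as a block, edgeR quasi-likelihood passed both (0.0102 for IL1B and 0.0424 for IRAK2). With no filter on low counts it passed IL1B (0.0318). Of the 9 alternatives, 6 did not pass IL1B and 7 did not pass IRAK2. Leaving out PDGF-BB replicate 3 passed IL1B (1.10, adjusted p 0.0389), and leaving out PDGF-BB replicate 2 (1.35, 0.0245) or control replicate 2 (1.38, 0.0472) passed IRAK2. Of 20 fits without 1 library, 19 did not pass IL1B and 18 did not pass IRAK2. The weakest were IL1B at 0.73 without control replicate 4 (adjusted p 0.261, edgeR quasi-likelihood) and IRAK2 at 0.98 without PDGF-BB replicate 3 (0.281). IL1R1 had -0.18 (interval -0.51 to 0.15) and IL1RAP -0.05 (interval -0.58 to 0.49), the latter with the other sign under spike-in scaling. The eNAMPT and PDGF-BB comparisons share their control libraries.

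Adding PDGF-BB to eNAMPT raised IL1B further. Against eNAMPT alone, IL1B had a log2 fold change of 1.16 (SE 0.24, interval 0.67 to 1.64, adjusted p 0.00322, edgeR quasi-likelihood). For it 5 of 5 combined libraries lay above the highest eNAMPT library, which 1.75% of tested genes did. IL1B was the 1 gene of 4 to pass, where 1.53% of all tested genes did, 1.18% higher and 0.347% lower. This call ended when libraries were scaled by their ERCC spike-in counts (1.00, adjusted p 0.139), a scaling that moved the median of all genes in this comparison to -0.15. IL1RAP had 0.69 (SE 0.26, interval 0.16 to 1.22, adjusted p 0.244), and it passed without eNAMPT replicate 1 (1.11, adjusted p 0.0124). IL1R1 had 0.39 (interval 0.06 to 0.73, adjusted p 0.337) and IRAK2 0.36 (interval -0.24 to 0.96, adjusted p 0.735).

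Adding eNAMPT to PDGF-BB gave IL1B a log2 fold change of 1.03 (SE 0.24, interval 0.54 to 1.51, p 0.000103, adjusted p 0.125, edgeR quasi-likelihood). All 5 combined libraries lay above the highest PDGF-BB library, which 0.322% of tested genes did. No gene of the 4 passed here, against 0.0578% of all tested genes, and IL1B was the 1 gene with an unadjusted p under 0.05, against 3.4% of all tested genes. DESeq2 passed IL1B (adjusted p 0.0278) and limma-voom passed 0 genes of the 4. IL1B also passed when the fit held the PDGF-BB and combined groups alone (0.0218) or left out control replicate 4 (0.0351). Its log2 fold change was 1.03 in each. With no filter on low counts (adjusted p 0.0172) or with the replicate number as a block (0.0121) IL1B passed too, by edgeR quasi-likelihood. It did not pass in 5 of the 9 alternatives, where its log2 fold change went as low as 0.89. Without 1 library, 19 of 20 fits did not pass it, and the adjusted p reached 0.793 (edgeR quasi-likelihood). IRAK2 had 0.43 (interval -0.17 to 1.03), IL1RAP 0.47 (interval -0.05 to 0.99) and IL1R1 0.13 (interval -0.20 to 0.46), the last with the other sign under spike-in scaling (-0.04).

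The interaction asked whether the eNAMPT effect differed with and without PDGF-BB. For IL1B the difference of log2 fold changes was 0.18 (interval -0.58 to 0.93, adjusted p 0.999, edgeR quasi-likelihood), an interval that includes gains and losses of effect, and spike-in scaling gave -0.0045. Without 1 library the IL1B value ran from 0.039 (without combined replicate 1) to 0.42 (without control replicate 4). It was -0.81 for IRAK2 (interval -1.71 to 0.10), 0.58 for IL1R1 (interval 0.11 to 1.05, p 0.0173) and 0.74 for IL1RAP (interval -0.01 to 1.49), each with an adjusted p of 0.999. Without eNAMPT replicate 1 the IL1RAP value was 1.16 (adjusted p 0.999). None of the 4 genes passed by edgeR, DESeq2 or limma-voom, and 0% of all tested genes passed. An unadjusted p under 0.05 was found for 1 of the 4, against 3.35% of all tested genes.

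**Figure D2:**
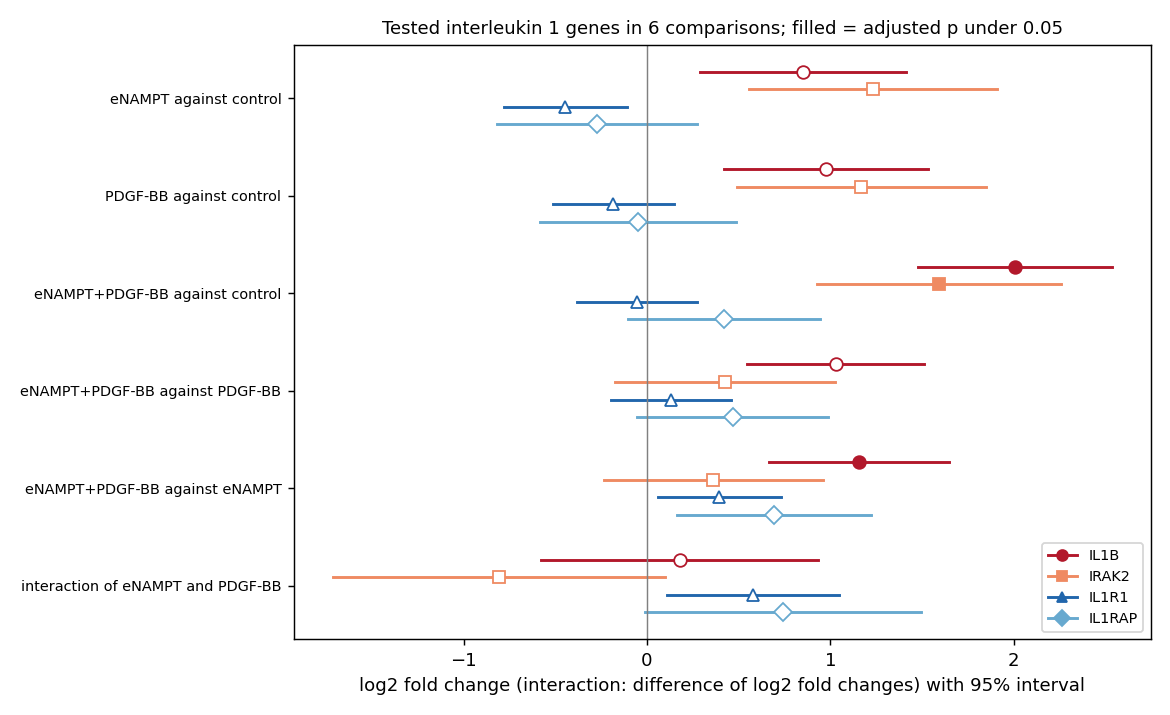
Log2 fold change of the 4 tested genes in 5 pairwise comparisons, and the difference of log2 fold changes in the interaction, with 95% intervals. Filled symbols mark an adjusted p under 0.05: IL1B and IRAK2 with both factors against control, and IL1B with both against eNAMPT.

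In the authors' deposited table, which names the first group over the second, the log2 value of IL1B for control over the combined group was -0.91 with an adjusted p of 1.4e-10. The authors' deposited table gave IL1B an adjusted p of 0.000312 between eNAMPT and the combined group, 0.0342 between the combined group and PDGF-BB, 0.112 between control and PDGF-BB, and 1 between control and eNAMPT. For IRAK2 the authors' deposited table gave 0.00172 between control and the combined group and 0.733 between control and eNAMPT. The log2 fold change of IL1B there was smaller in size than the 2.00 fitted here, and the cause was not tested.

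The other genes of the pathway were taken from a list of 51, ordered by role. None of the 8 further ligands and antagonists had enough counts to be tested. IL1RN, the natural antagonist of the receptor, had 1 count in the 20 libraries, IL18 6 and IL37 23. Of the 9 other receptors, decoys and binding proteins, 2 were tested, SIGIRR and IL18BP, both known to restrain signalling by the family. The decoy receptor IL1R2 had 11 counts in all and the interleukin 33 receptor IL1RL1 33. Of 20 genes of receptor-proximal signalling 16 were tested, among them MYD88, IRAK1, IRAK4 and TRAF6, while the inhibitory IRAK3 had 53 counts and was not. Of 14 genes of processing and release 9 were tested, among them CASP1 and PYCARD, whereas the inflammasome sensor NLRP3 had 0 counts. The untested genes are named here after their counts were seen.

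None of the 27 tested pathway genes passed in any of the 6 comparisons by edgeR, DESeq2 or limma-voom. Against control, an unadjusted p under 0.05 was reached by 0 of them under eNAMPT (3.61% of all tested genes), 4 or 14.8% under PDGF-BB (9.64%) and 4 or 14.8% under the combination (10.9%). It was reached by 1 or 3.7% with both against PDGF-BB (3.4%), 3 or 11.1% with both against eNAMPT (10.9%) and 0 in the interaction (3.35%). Their median log2 fold change was 0.06 with both factors against control, where that of all tested genes was -0.01, and 0.01 with eNAMPT, where that of all genes was -0.00058.

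NINJ1, which encodes a membrane protein that ruptures dying cells, came nearest the threshold. It stood at 33.1 CPM ± 3.19 (SD, n = 5) in control, 32.4 CPM ± 7.90 under eNAMPT, 44.3 CPM ± 5.76 under PDGF-BB and 44.8 CPM ± 7.75 under the combination. Its log2 fold change was 0.42 with PDGF-BB (adjusted p 0.193, edgeR quasi-likelihood), 0.44 with both against control (0.128) and 0.47 with both against eNAMPT (0.0869). UBE2N, a ubiquitin-conjugating enzyme that works with TRAF6, had 0.20 with both against control (interval 0.05 to 0.36, adjusted p 0.209). MAP3K8, a kinase upstream of ERK, had 0.66 with eNAMPT (interval -0.04 to 1.36) and -1.004 in the interaction (interval -2.01 to 0.0016). PYCARD, the inflammasome adaptor, had 0.23 with eNAMPT, and MAP3K3 -0.27 with PDGF-BB (adjusted p 0.419). IRAK4, the kinase that starts the cascade, had -0.41 with both against PDGF-BB (interval -0.80 to -0.02, adjusted p 1), beside IKBKB at -0.30. CASP4 had 0.23 with both against eNAMPT (adjusted p 0.366) and IRAK1 0.19 in the interaction.

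**Figure D3:**
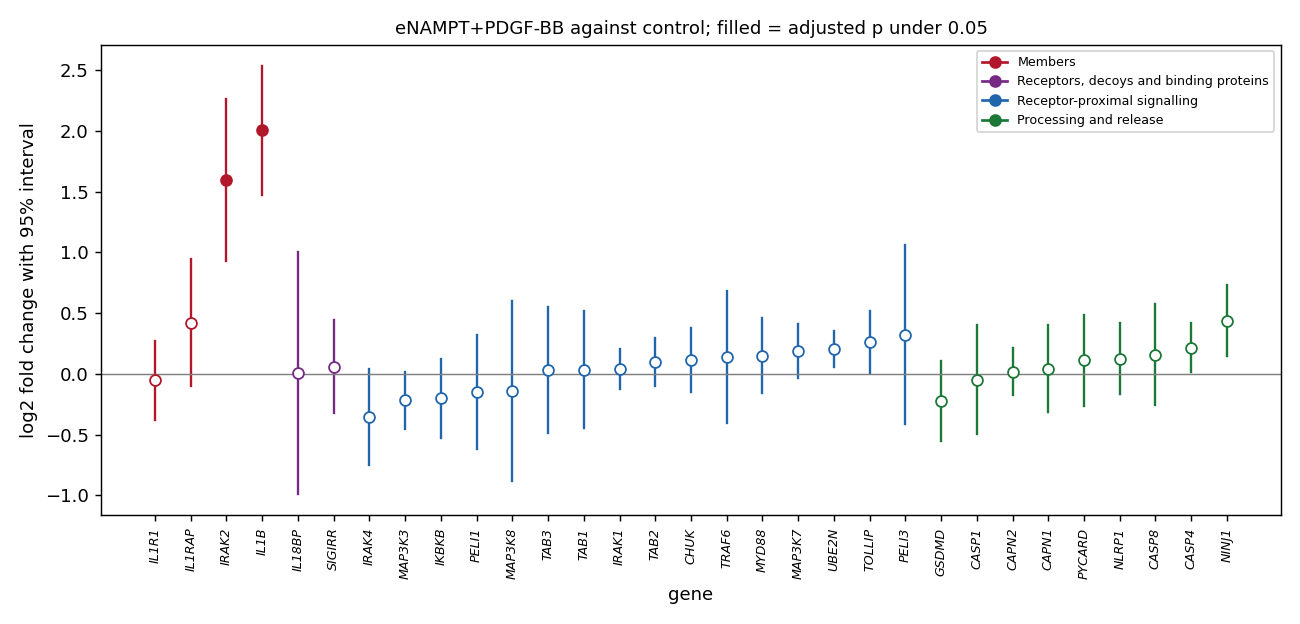
Log2 fold change with 95% interval for both factors against control, for the 4 tested genes chosen by name and the 27 tested pathway genes grouped by role. Filled symbols mark an adjusted p under 0.05, reached by IRAK2 at 1.59 and IL1B at 2.00, and no pathway gene is filled.

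The genes whose log2 CPM followed IL1B most closely over the 20 libraries were the chemokines CXCL3 (Pearson r 0.89) and CXCL8 (0.88), the granule proteoglycan SRGN (0.86) and the pentraxin PTX3 (0.85), among 12107 genes. Those nearest IRAK2 were CXCL8 (0.82), the immediate early gene IER3 (0.80), ZNF469 (0.77) and the chemokine CCL2 (0.77). IL1B and IRAK2 correlated with each other at 0.70, above 99.5% of those genes' values with IL1B. These values describe 20 libraries that share 4 treatments, so they carry the differences between groups.

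Gene counts ranged from 2894878 to 4011066 per library. Of 11 pericyte markers 10 passed the filter, with PDGFRB at 104 to 156 CPM and CSPG4 at 45.0 to 80.6 CPM, and the exception, DES, had 39 counts in all. Of 10 leukocyte markers, LYZ, AIF1 and TYROBP were at 0 in all libraries and PTPRC, which marks all leukocytes, had 5 counts. The summed level of the leukocyte list, mostly CD14, was 22.7 to 26.6 CPM in control (median 24.2), 21.3 to 30.4 CPM under eNAMPT (23.7), 23.0 to 31.6 CPM under PDGF-BB (25.7) and 19.6 to 28.7 CPM under the combination (20.4). The epithelial or keratinocyte list summed to 154 to 197 CPM in control, 135 to 180 CPM under eNAMPT, 172 to 237 CPM under PDGF-BB and 199 to 253 CPM under the combination. That sum was mostly KRT18, and its part in the results was not tested, while EPCAM, CDH1, KRT5 and KRT14 had 35, 6, 5 and 1 counts in all. The 7 endothelial markers summed to 4.92 to 9.18 CPM in control and 5.20 to 7.25 CPM with both. All 6 fibroblast markers were tested, and they summed to 4253 to 5279 CPM in control and 3886 to 5230 CPM with both.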

How the data were processed

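The submitters' processing notes name GRCh38, STAR 2.6.1a, DESeq2 1.18.1, FastQC 0.11.7 and featureCounts 1.6.4 without giving their settings, and the strand setting is not given in the sources used here. The authors deposited raw counts per gene and library, and in the same table their own log2 fold changes and adjusted p-values, per the file headers. A further deposited count table, higher in 152335 cells and lower in 0, served as an alternative. Gene totals exclude 92 ERCC and 7 SIRV spike-ins. Genes were filtered with filterByExpr (12111 of 58676 kept), scaled by TMM, and fitted in 1 edgeR 4.0.16 quasi-likelihood model of all 20 libraries with a mean per group, two-sided. P-values were adjusted by Benjamini-Hochberg over all tested genes, with a threshold of 0.05. Intervals are 95%, and log2 CPM used a prior count of 2.

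Alternatives were DESeq2 1.42.0, limma-voom (limma 3.58.1), RLE and spike-in scaling, a stricter filter and none, a replicate block, fewer groups, the other table and leaving out each library, in R 4.3.3. The genes, lists and alternatives were chosen with earlier results of these data known. Named genes are the 6 members, pathway genes that passed or, failing that, the 2 with the smallest p per comparison, and the 4 genes most correlated with each member that passed, of a mean log2 CPM of at least 1. The model was tested on simulated counts.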

Additional observations from a re-analysis of the deposited data

Results flagged for a closer look

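Of the 24 sets of 5 libraries (6 genes in 4 groups), 5 held a library whose gap to its nearest neighbour was over 0.71 of the set's range. Of these, 2 fell among the 16 sets of the tested genes. For roughly normal values chance gives about 1 in 20 sets. The control library with the least IL1B, replicate 4, stood at 1.87 CPM (7 counts, and 11 in the other count table), with the next at 6.12 CPM. Without it the log2 fold change of IL1B with both factors was 1.76 (adjusted p 5.58e-06, edgeR quasi-likelihood). The eNAMPT library with the most IL1RAP, replicate 1, stood at 19.8 CPM, with the next at 9.54 CPM. The other 3 sets were of genes too low to judge: IL1A at 0.328 CPM in control (1 count) and 0.574 CPM with PDGF-BB (2 counts), and IL33 at 0.542 CPM with both factors (2 counts), each with 0 in the other 4 libraries. Counts in a single library make the gap equal to the range, so the chance rate does not apply to these sets.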

How the results depend on the processing

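The count of 2 genes passing with both factors against control held in all 9 alternatives and all 20 fits without 1 library. Of the 24 fold changes of the tested genes, 199 of 212 values under other settings and 468 of 480 without 1 library kept their direction and their side of the threshold. With PDGF-BB against control, where 0 genes passed, 2 passed by DESeq2, 1 with no filter, 2 with the replicate block (IL1B 1.00, adjusted p 0.0102, and IRAK2 1.10, 0.0424) and 0 to 1 without 1 library. With both against PDGF-BB, where 0 passed, 1 passed by DESeq2, 1 with no filter, 1 with the replicate block (IL1B 1.01, adjusted p 0.0121), 1 with only the groups compared and 0 to 1 without 1 library. With both against eNAMPT, where 1 passed, 0 passed under spike-in scaling and 1 to 2 without 1 library. With the replicate block 1 pathway gene, NINJ1, passed with PDGF-BB against control (adjusted p 0.0468), 1 with both against control (0.0276) and 1 with both against eNAMPT (0.0124). Replicate numbers were not taken to pair samples, under a rule that every same-numbered pair exceed a correlation of 0.1. These correlations were of log2 CPM after each gene's mean in its group was subtracted. Same-numbered libraries correlated at 0.0014 to 0.176 on that measure, all above 0. The median for differently numbered libraries was -0.036 to -0.019 over the comparisons. The main fit therefore takes no account of any likeness between same-numbered libraries. Each library correlated best with its own number in all 5 pairs for both against PDGF-BB, and in 2 to 4 of 5 pairs in the other comparisons. Over all genes the block raised the calls with both against control from 198 higher and 42 lower to 385 and 125, and spike-in scaling lowered them to 40 and 10.

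Reversed signs were all of values near 0: under spike-in scaling IL1RAP with PDGF-BB (0.0049), IL1R1 with both against PDGF-BB (-0.037) and the IL1B interaction (-0.0045), and without 1 library IL1RAP with PDGF-BB (-0.18 to 0.051) and IL1R1 with both against control (-0.18 to 0.081). With the other count table all 16 group means of the 4 tested genes were lower in CPM, by 14.4% to 17.5%. For 2 of them this exceeded the SD, IL1R1 with eNAMPT (18.8 CPM) and with PDGF-BB (22.3 CPM). The counts themselves were not lower there: IL1B had 819 in all against 815, IL1R1 1823 against 1815, IL1RAP 819 against 818 and IRAK2 477 in each. Genes with few counts, such as IRAK2 at 8 to 16 in control, are imprecise at this depth.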
